A study of Homo sapiens with 6 samples.

Results

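The enzymes that write, maintain and remove DNA methylation were compared between nascent transcription and steady-state RNA in K562 cells, a human chronic myelogenous leukemia cell line. The group holds 8 genes, chosen by function and by name: the methyltransferases DNMT1, DNMT3A and DNMT3B, their partner UHRF1, the oxidising enzymes TET1, TET2 and TET3, and the glycosylase TDG. All 8 were found among the 37192 genes of the matched transcripts, each with 1 counted transcript and with counts in all 6 libraries. There were 4 total RNA-seq libraries (75-nt single-end reads after rRNA depletion) and 2 PRO-seq libraries (paired reads of 150 nt), all made from untreated K562 cells grown in RPMI-1640 with serum and antibiotics. All cells came from the same flask, so that the spread between libraries leaves out differences between cultures and may be technical. PRO-seq sequences RNA still held by engaged RNA polymerase, and the study divides RNA-seq by PRO-seq to obtain a relative RNA half-life for each transcription unit (TU). Its main analysis used previously published PRO-seq and poly-A+ RNA-seq data. It reports similar results with its own 6 libraries, the ones used here, but found their half-life estimates more variable and further from published ones.

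DNA methylation in mammals is laid down mostly at CpG dinucleotides. DNMT3A and DNMT3B add methyl groups to unmethylated sites, and DNMT1 copies the pattern onto the new strand after replication, recruited by UHRF1, which binds hemimethylated CpG. TET1, TET2 and TET3 are iron- and 2-oxoglutarate-dependent dioxygenases that oxidise 5-methylcytosine in steps, and TDG cuts out the most oxidised bases so that base excision repair can restore cytosine. DNMT3A and TET2 are genes often mutated in myeloid leukemia.

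The RNA-seq libraries held 5732780 to 9002746 counts on transcripts and the PRO-seq libraries 6993816 and 7245632. RNA-seq replicates 1 and 3, and replicates 2 and 4, lay closer to each other (chi-square per degree of freedom 1.11 and 1.12) than the other RNA-seq pairs did (1.74 to 2.11). Both exceeded 1, and all 4 were kept as the labels give them. Whether the close pairs are separate preparations is not stated in the sources, and if they are not, the SDs with n = 4 rest on 2 preparations. The K562 list (globins, GATA1, TAL1 and other erythroid genes) had 10 of 10 genes at 1 TPM or more in RNA-seq. Among markers of other cells at 1 TPM or more were CD3D (109 TPM) and CD3G (2.02 TPM) of 5 T cell genes, no B cell gene of 3, COL1A2 (1.36 TPM) of 5 fibroblast genes and TP63 (1.755 TPM) of 4 squamous epithelial genes. The T cell markers CD3E (0.324 TPM), CD2 (0.047 TPM) and CD8A (0.0482 TPM) were low, LUM of the fibroblast genes was at 0, and the RNA-seq levels summed over each list were 109.5 to 116.4 TPM (T cell), up to 0.629 TPM (B cell), 1.44 to 2.54 TPM (fibroblast) and 1.24 to 2.42 TPM (squamous). Their part in the values below was not tested.

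Levels are given in TPM, in which counts are divided by the length counted and then scaled to the same total in every library. For RNA-seq the length was that of the exons, and for PRO-seq the span of the TU without 500 bp at each end, which the authors left out to avoid paused and slowing polymerase. The TPM of each assay are shares of its own total, so that a gene's RNA-seq and PRO-seq values are read against those of other genes. Which value is higher within a gene is given below as a description and is not by itself an excess or lack of RNA. The study names as a limitation that PRO-seq reflects elongation rate as well as transcription rate, though it judged the effect limited. Elongation was not measured here, so transcription below stands for the PRO-seq level. Both assays average over all cells of a library, so that little RNA in every cell and more RNA in fewer cells cannot be told apart.

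DNMT1, which maintains methylation through cell division, had the highest PRO-seq level of the group. The gene lies at chr19:10133346-10194953 (GRCh38, minus strand), and the counted transcript, ENST00000340748, has 40 exons. Its PRO-seq level was 154.3 and 160.9 TPM in the 2 libraries, a higher value than that of 95.2% of the 14965 mRNAs with counts in both assays. Its RNA-seq level was 82.4, 79.2, 84.9 and 78.85 TPM in replicates 1 to 4 (81.3 TPM ± 2.86, SD, n = 4). All 4 RNA-seq values lay below both PRO-seq values, and 5968 RNA-seq and 5003 PRO-seq counts stood behind them.

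UHRF1, on the same chromosome (chr19:4903080-4962154, plus strand, transcript ENST00000612630), is the adaptor that brings DNMT1 to newly replicated DNA. Its PRO-seq level was 43.4 and 45.8 TPM, well under that of DNMT1 in each library. Its RNA-seq level was 63.2, 57.4, 63.5 and 58.9 TPM (60.8 TPM ± 3.07, SD, n = 4), so that every RNA-seq value exceeded both PRO-seq values. The counted transcript is not the one the annotation calls canonical, which holds 86.9% of its exonic bases, against 94.1% or more for the other 7 genes.

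Both de novo methyltransferases were measured, and they stood far apart. DNMT3B (chr20:32762385-32809356, plus strand, ENST00000328111) had PRO-seq levels of 78.2 and 86.65 TPM and RNA-seq levels of 45.9, 44.6, 46.5 and 44.7 TPM (45.4 TPM ± 0.935, SD, n = 4). DNMT3A (chr2:25227874-25342590, minus strand, ENST00000264709) had PRO-seq levels of 5.54 and 6.57 TPM and RNA-seq levels of 1.435, 1.46, 1.41 and 1.72 TPM (1.51 TPM ± 0.144, SD, n = 4). In both assays the values of these genes did not overlap, and DNMT3A was the lowest of the 8. Its RNA-seq counts were 53, 57, 35 and 49, the fewest of any of the 8 genes. DNMT3A RNA lay at the 34.5th percentile of mRNAs and DNMT3B RNA at the 76.8th.

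The 3 TET genes were lower than DNMT1, UHRF1 and DNMT3B in both assays. TET1 (chr10:68560337-68694487, plus strand, ENST00000373644) had PRO-seq levels of 37.1 and 39.5 TPM and RNA-seq levels of 9.5, 10.04, 10.4 and 9.72 TPM (9.91 TPM ± 0.391, SD, n = 4). TET3 (chr2:73983631-74135498, plus strand, ENST00000409262) had 29.9 and 31.5 TPM in PRO-seq and 7.655, 7.35, 8.06 and 7.885 TPM in RNA-seq (7.74 TPM ± 0.307, SD, n = 4). The position given is that of the RefSeq gene, whereas the counted transcript of TET3 spans 123267 bp. TET2 (chr4:105145875-105279803, plus strand, ENST00000513237) had 17.4 and 15.7 TPM in PRO-seq and 5.51, 5.68, 4.93 and 5.42 TPM in RNA-seq (5.39 TPM ± 0.321, SD, n = 4). The order TET1, TET3, TET2 held in both assays, without overlap between the libraries of neighbours. The counted span of TET2 shares 5710 bp with that of TET2-AS1 on the other strand, and whether the counting used strand is not stated in the labels or methods. TET2-AS1 itself had 2 RNA-seq and 2 PRO-seq counts in all.

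TDG, which excises formylcytosine and carboxylcytosine as well as mismatched thymine, had the most RNA of the group. It lies at chr12:103965872-103988874 (plus strand, ENST00000392872). Its RNA-seq level was 95.9, 100.9, 95.75 and 103.1 TPM (98.9 TPM ± 3.70, SD, n = 4), and its PRO-seq level was 70.7 and 71.0 TPM. All RNA-seq values exceeded both PRO-seq values. DNMT1 had the higher PRO-seq level and TDG the higher RNA-seq level, so that these genes changed places between the assays.

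**Figure D1:**
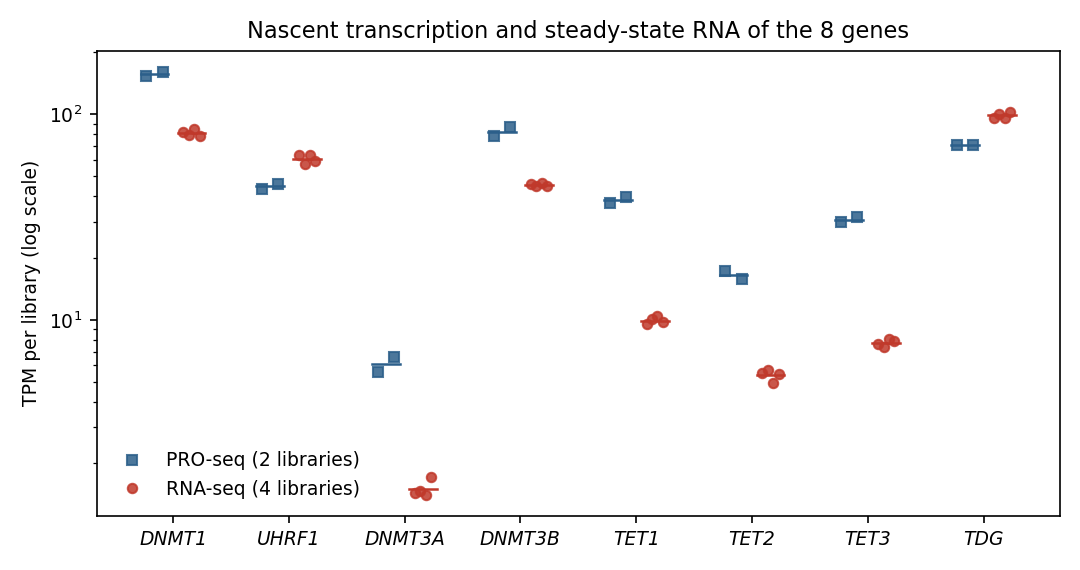
TPM of the 8 genes on a log axis, with 1 point for each of 2 PRO-seq (squares) and 4 RNA-seq libraries (circles) and a short line at the mean. RNA-seq points lie above PRO-seq points for UHRF1 and TDG and below them for the other 6 genes. The TPM of each assay are shares of its own total.

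In RNA-seq the order from high to low was TDG, DNMT1, UHRF1, DNMT3B, TET1, TET3, TET2 and DNMT3A. In PRO-seq it was DNMT1, DNMT3B, TDG, UHRF1, TET1, TET3, TET2 and DNMT3A. No neighbours in either order had overlapping libraries. The smallest steps were 1.16-fold in PRO-seq (DNMT3B over TDG, and UHRF1 over TET1) and 1.22-fold in RNA-seq (TDG over DNMT1), while the largest was the 4.58-fold step in RNA-seq from DNMT3B to TET1. The lower 4 genes kept their order from PRO-seq to RNA-seq, and the upper 4 did not.

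The comparison of the assays asked which of the 8 genes have more or less steady-state RNA than their transcription would give at the ratio of a typical mRNA. The ratio has no time unit, so it was read against the median of the 8733 mRNAs past the study's thresholds (PRO-seq over 10 TPM, RNA-seq over 1 TPM), whose log2 ratio was -0.64 with a middle range of -1.70 to 0.44. TDG (0.48) and UHRF1 (0.44) had the highest log2 ratios of the group. DNMT3B (-0.86) and DNMT1 (-0.96) lay near the median, TET2 (-1.61) below it, and TET1 (-1.95), TET3 (-2.0) and DNMT3A (-2.01) lowest. Among the mRNAs past the thresholds, these values fell at the 75.8th percentile for TDG, the 75th for UHRF1, the 44.4th for DNMT3B, the 42nd for DNMT1, the 26.9th for TET2, the 20.2nd for TET1, the 19.6th for TET3 and the 19.5th for DNMT3A. DNMT3A is below the PRO-seq threshold and so is not itself one of these mRNAs. Among the 14965 mRNAs with counts in both assays it fell at the 36.3rd percentile, and TET3 at the 36.6th.

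**Figure D2:**
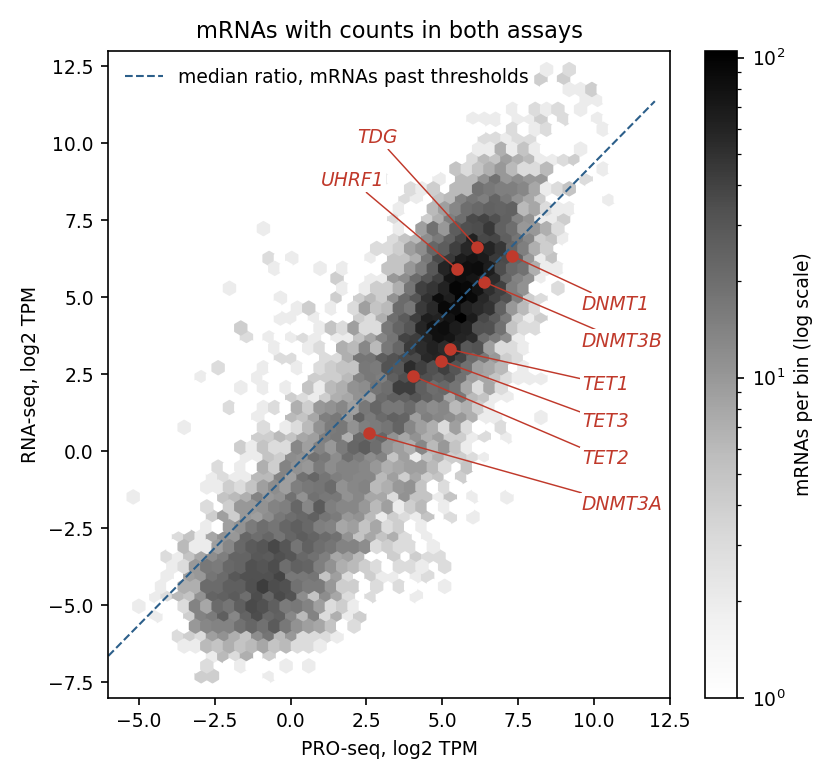
RNA-seq against PRO-seq level (log2 TPM of summed counts) of the mRNAs with counts in both assays, shaded by number per bin, with the 8 genes in red and the median ratio of mRNAs past the thresholds as a dashed line. UHRF1 and TDG lie above the line, and the TET genes and DNMT3A lie below it.

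Each TU was tested with the edgeR quasi-likelihood test on the counts, RNA-seq against PRO-seq, relative to the median mRNA, with Benjamini-Hochberg adjustment over the 10053 TUs past the thresholds. Of the 7 genes of the group past the thresholds, 2 lay above the median mRNA and 5 below at an adjusted p under 0.05. Over all TUs tested, 40.0% were called above and 50.4% below, so that a call by itself sets no gene of this group apart. Of these TUs 8733 were mRNAs, and the shares among mRNAs alone are not given. With 4 and 2 libraries, the exact permutation test of a single value cannot give a two-sided p below 0.133 when the one-sided p is doubled.

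TDG and UHRF1 had more RNA for their transcription than the median mRNA. The log2 difference was 1.12 ± 0.0613 (SE) for TDG, or 2.17-fold (95% interval 0.99 to 1.24, edgeR adjusted p = 9.2e-17). It was 1.08 ± 0.0592 (SE) for UHRF1, or 2.12-fold (95% interval 0.96 to 1.2, edgeR adjusted p = 9.4e-17). When edgeR tested whether a difference exceeded 2-fold, which 21.3% of TUs did upward and 29.8% downward, TDG passed (adjusted p = 0.018) and UHRF1 did not (adjusted p = 0.056). UHRF1 minus TDG was -0.04 ± 0.089 (SE) on the log2 scale, and of the 8 pairings of 1 RNA-seq with 1 PRO-seq library 4 had each sign.

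TET1 and TET3 had the least RNA for their transcription among the 7 tested genes. The log2 difference from the median mRNA was -1.32 ± 0.058 (SE) for TET1, or 2.49-fold (edgeR adjusted p = 3.9e-19), and -1.36 ± 0.061 (SE) for TET3, or 2.56-fold (edgeR adjusted p = 6.1e-19). Both also passed the test for more than 2-fold in edgeR (adjusted p = 2.0e-06 for TET1 and 5.5e-07 for TET3). TET2 lay 1.96-fold below, at -0.97 ± 0.0787 (SE, edgeR adjusted p = 1.3e-12), and did not pass the 2-fold test. TET2 lay above both, with a log2 difference of -0.34 ± 0.103 (SE) for TET1 minus TET2 and of 0.39 ± 0.105 (SE) for TET2 minus TET3, and in 8 of 8 library pairings each. TET1 and TET3 differed by 0.04 ± 0.0914 (SE), with the same sign in 5 of 8 pairings.

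DNMT1 and DNMT3B lay close to the median mRNA. The log2 difference was -0.32 ± 0.0425 (SE, edgeR adjusted p = 4.9e-08) for DNMT1 and -0.22 ± 0.0552 (SE, edgeR adjusted p = 4.5e-04) for DNMT3B, that is 1.25-fold and 1.17-fold below. Their side of the median depended on the mRNAs it was taken over. With all mRNAs with at least 1 summed count in each assay, the median moved down by 0.63 on the log2 scale, and both genes lay above it by 0.31 (DNMT1) and 0.41 (DNMT3B). DNMT1 minus DNMT3B was -0.10 ± 0.0748 (SE).

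DNMT3A stayed under 10 TPM in PRO-seq and so was not among the TUs past the thresholds. It is given from the fit over the 21100 TUs with at least 1 summed count in each assay, against the lower median. There it lay at -0.75 ± 0.145 (SE, 1.68-fold below, 95% interval -1.03 to -0.46, edgeR adjusted p = 5.4e-07). In that fit 31.2% of TUs were called above and 38.0% below, and of the 8 genes 4 lay above (DNMT1, UHRF1, DNMT3B and TDG) and 4 below (DNMT3A and the TET genes). With at least 10 summed counts the difference was -1.26 ± 0.136 (SE, edgeR adjusted p = 1.4e-10). Against the median of the mRNAs past the thresholds it was -1.38 as a plain value with no test.

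Differences between the genes of the group do not depend on the choice of median, though they do on the lengths used. All 28 pairs were compared in the fit with at least 1 summed count, and in 24 of them the difference had the same sign in 8 of 8 library pairings. The 4 others were UHRF1 with TDG, TET1 with TET3, and DNMT3A with TET1 and with TET3. The 8 pairings share libraries and are not independent, and the 24 include DNMT1 minus DNMT3B, at -0.10 ± 0.0748 (SE). DNMT1 lay below its partner UHRF1, with a log2 difference of -1.40 ± 0.0762 (SE), or 2.64-fold. The log2 difference of DNMT3A from DNMT3B was -1.15 ± 0.156 (SE), or 2.22-fold. The TET enzymes, which act before TDG, lay below it, with log2 differences of -2.09 ± 0.105 (SE) for TET2, -2.43 ± 0.0906 (SE) for TET1 and -2.48 ± 0.093 (SE) for TET3, or 4.26-fold to 5.57-fold.

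The genes with the lowest ratios were also the longest of the group. DNMT3A, TET1, TET2 and TET3 have exon lengths of 9501, 9612, 10166 and 12060 nt. These are at or above the 95.4th percentile of the 14965 mRNAs with counts in both assays, whose median is 3074 nt. TDG has 3183 nt, UHRF1 4308 nt, DNMT3B 4336 nt and DNMT1 5408 nt. Exon length is itself the divisor of the RNA-seq TPM, so that length and ratio are not independent measures here. Without any division by length, the counts were scaled between libraries as in the edgeR test above and set against the median mRNA. The log2 values were then 1.53 for TDG, 0.53 for UHRF1, -0.43 for DNMT3B, -0.61 for DNMT1 and -1.47 for TET2. They were -1.50 for TET3, -1.9 for TET1, and -0.90 for DNMT3A against the median at 1 summed count. Each of the 8 genes lay on the same side of the median as with length, but the spacing within the group changed. TDG and UHRF1, and TET1 and TET3, were then further apart, and TET2 and TET3 closer together, so that these pair results depend on division by length.

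The 3′ untranslated regions (UTRs) differed as well. DNMT1 has 321 nt, a shorter 3′ UTR than most (23.7th percentile), whereas DNMT3A has 6424 nt, which is 67.6% of its exon length, and TET3 has 6000 nt. The 3′ UTR was 1351 nt in UHRF1, 1453 nt in DNMT3B, 1784 nt in TDG, 2673 nt in TET1 and 3297 nt in TET2. MicroRNAs of the miR-29 family are known to repress DNMT3A, DNMT3B, the TET genes and TDG, and their seed (bases 2 to 8, in capitals) pairs with the letters TGGTGCT in a transcript. The mature sequences, from RefSeq (GRCh38.p14), share this seed and are shown because the matches described next were searched with it. They come from MIR29A at chr7:130876748-130876769, MIR29B1 at chr7:130877467-130877489, MIR29B2 at chr1:207802450-207802472 and MIR29C at chr1:207801865-207801886, all on the minus strand.
hsa-miR-29a-3p: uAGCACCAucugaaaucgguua
hsa-miR-29b-3p: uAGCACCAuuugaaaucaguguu
hsa-miR-29c-3p: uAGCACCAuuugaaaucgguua

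The letters TGGTGCT were counted on the sense strand of each annotated 3′ UTR. They occurred 10 times in TET3, 4 times in TET2, 4 times in DNMT3A, 3 times in TET1, 3 times in TDG, once in DNMT3B and not in DNMT1 or UHRF1. Of 13864 3′ UTRs of mRNAs, 15.4% held at least 1 match. Among UTRs of like length (0.8 to 1.25 times), the share with a match was 39.4% for TET3, 41.3% for DNMT3A, 26.3% for TET2, 22% for TET1, 16.7% for TDG, 15.3% for DNMT3B, 13.8% for UHRF1 and 4.51% for DNMT1, and the median number of matches was 0 in each case. The 3 matches of TDG lay in 1784 nt and the 10 of TET3 in 6000 nt. Whether the matches bear on the ratios was not tested. A match is a stretch of letters in an annotated transcript and was not measured as a binding site.

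For each gene with matches, 1 is printed with the bases around it, the first that is followed by A (a feature of strong seed pairing) or, for DNMT3A and TET1, which have none, the first. The match is in capitals, and positions in the 3′ UTR count from the base after the stop codon. The matches shown lie at 862 to 868 in DNMT3A, 1202 to 1208 in DNMT3B, 283 to 289 in TET1, 596 to 602 in TET2, 3249 to 3255 in TET3 and 1064 to 1070 in TDG.
DNMT3A: gacttcataaTGGTGCTttcaaaca
DNMT3B: ctcttcttacTGGTGCTattttgta
TET1: tcactcagttTGGTGCTttaaatta
TET2: ttctaagaaaTGGTGCTaagaaaat
TET3: acaaaataacTGGTGCTagctcaag
TDG: gagttttccaTGGTGCTacaaataa

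**Figure D3:**
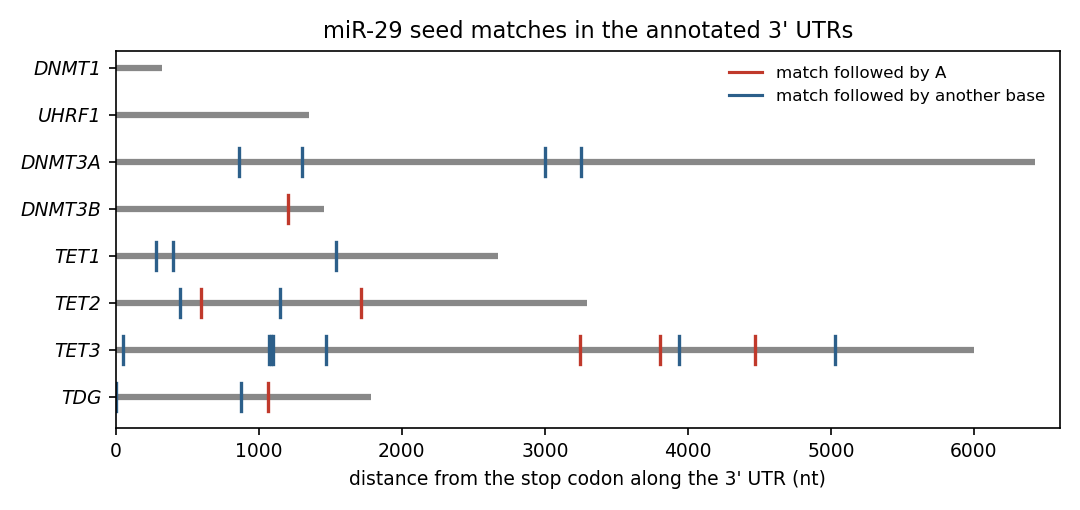
Annotated 3′ UTRs of the 8 genes drawn to scale from the stop codon (nt), with a tick at each match of the miR-29 seed, red where the next base is A and blue otherwise. TET3 has 10 ticks over 6000 nt and TDG 3 over 1784 nt, and DNMT1 and UHRF1 have none.

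The host gene of miR-29b-2 and miR-29c, MIR29B2CHG, chosen after its values were seen, was transcribed at 35.8 TPM in PRO-seq (664 and 697 counts). Its RNA-seq counts were 8, 12, 11 and 6, or 2.33 TPM. Mature microRNAs are not measured by either assay. A further 2 motifs were counted in the same UTRs. The Pumilio motif TGTANATA, held by 27.1% of UTRs, occurred 3 times in TET2 and in TET3, 2 times in DNMT3A, and once in TET1 and in TDG. The AU-rich heptamer TATTTAT, held by 32.6%, occurred 5 times in TET3, 3 times in TDG, 2 times in TET2 and once in DNMT3A. Neither occurred in DNMT1, UHRF1 or DNMT3B, and the heptamer did not occur in TET1. Among UTRs of like length, the Pumilio motif was held by 64.8% for TET3, 68.5% for DNMT3A, 45.7% for TET2, 41.3% for TET1 and 31.2% for TDG. The heptamer was held by 72.4% for TET3, 75.3% for DNMT3A, 57.1% for TET2, 50.3% for TET1 and 37.6% for TDG, so that a match is common in UTRs as long as those of TET3 and DNMT3A.

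For each gene of the group, the mRNAs most like it were taken as those at the smallest Euclidean distance in log2 TPM over the 6 libraries, among 11510 mRNAs with counts in all of them. These were DCAF16 (distance 0.105) and DDX6 (0.128) for DNMT1, NR1H2 (0.156) and CNPPD1 (0.162) for UHRF1, PPP1R11 (0.105) and MEF2C (0.128) for DNMT3B, and DDR2 (0.406) and NEB (0.516) for DNMT3A. For the demethylation enzymes they were SMIM19 (0.137) and KLHL42 (0.172) for TET1, TMED3 (0.242) and NSUN3 (0.288) for TET2, ACOX3 (0.136) and WIPF2 (0.178) for TET3, and NCBP1 (0.108) and CNOT8 (0.125) for TDG. The distances of the neighbours were widest for the genes with the fewest RNA-seq counts, DNMT3A and TET2.

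The other genes of the pathway were taken from 5 lists with 53 genes, of which 51 were matched and 43 passed the thresholds. HELLS and LIG1 were not analysed here. Of the 43, 28 lay above the median mRNA and 10 below at an edgeR adjusted p under 0.05. The 43 had a median log2 difference of 0.47. Over all TUs tested, 40.0% lay above and 50.4% below, with a median of -0.24. Those TUs include 8733 mRNAs, on whose median the fit is centred, and TUs of other classes, whereas the list genes code for proteins. The calls within each list below are read beside these shares, and no list was tested as a set. Without division by length, 24 were called above and 17 below. The 7 genes of the enzyme group past the thresholds had a median of -0.32.

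Among paralogs and partners of the methyltransferases, 5 of 8 tested genes lay above the median mRNA and 3 below. PCNA, the replication clamp that DNMT1 binds, lay highest, at 2.94 ± 0.055 (SE), with 567.5 TPM in RNA-seq and 115.5 TPM in PRO-seq. USP7 (0.47) and UHRF2 (0.59), a deubiquitinase of DNMT1 and the paralog of UHRF1, were also above. TRDMT1, a DNMT paralog that methylates transfer RNA, lay lowest at -2.02 ± 0.102 (SE), and at -1.11 without division by length. DNMT3L, the catalytically inactive cofactor of the de novo enzymes, had 0 RNA-seq and 2 PRO-seq counts.

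The methyl-CpG readers were divided, with 3 of 8 above, 3 below and 2 without a call. Among the tested genes of the lists ZBTB4 was lowest at -2.92 ± 0.0948 (SE), and ZBTB38 the highest reader at 0.61 ± 0.094 (SE). Both are zinc finger proteins that bind methylated DNA. MBD1, which had the highest PRO-seq level of the readers (87.9 TPM), lay at -0.56 ± 0.0786 (SE). Without division by length ZBTB4 was at -1.72, and ZBTB38 (-2.55) and MBD1 (0.22) were on the other side of the median.

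On the list for base excision after oxidation or deamination, not all of whose genes act after TDG, 8 of 11 tested genes lay above and 2 below. POLB, the polymerase that fills the gap, lay highest at 2.07 ± 0.0819 (SE) but at 0.63 without division by length. UNG (1.85), PARP1 (1.97) and the endonuclease APEX1 (1.69) were near it with length. LIG3, the ligase that seals the nick, lay below at -1.10. GADD45A, a stress-induced gene linked to demethylation, was the most transcribed of the list (223.5 TPM in PRO-seq) and lay at 0.36 ± 0.0936 (SE), and at 2.91 without division by length. GADD45B lay lowest at -2.01 ± 0.511 (SE), on 13 PRO-seq counts. Its value was -1.60 without PRO-seq replicate 1 (edgeR adjusted p = 0.054) and 2.02 without division by length.

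The TET regulators and genes of 2-oxoglutarate supply were the list with all tested genes, 7 of 7, above the median mRNA, against 40.0% of all TUs tested. The TET genes themselves lay below it. CXXC4, also on this list, did not pass the thresholds, with 1 RNA-seq and 8 PRO-seq counts. HMCES, which binds abasic sites, lay highest at 1.91 ± 0.0891 (SE). IDH1, which makes 2-oxoglutarate, had the highest PRO-seq level (76.7 TPM) and lay at 1.66 ± 0.0659 (SE), and IDH2 lay at 1.17. OGT, the glycosyltransferase that TET proteins bind, lay at 1.15. D2HGDH, which removes D-2-hydroxyglutarate, lay lowest at 0.30 ± 0.09 (SE), with 0.24 (edgeR adjusted p = 0.06) without PRO-seq replicate 1 and -0.40 without division by length.

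In the methyl donor cycle, 5 of 9 tested genes lay above and 2 below. SHMT2, the mitochondrial serine hydroxymethyltransferase, lay highest at 2.34 ± 0.11 (SE), and at 4.57 without division by length. AHCY, which clears the S-adenosylhomocysteine that the methyltransferases leave, lay at 2.07. MAT2A, which makes the methyl donor S-adenosylmethionine, had 1344 TPM in PRO-seq, the highest of any list, and 269.5 TPM in RNA-seq. Its log2 difference was -1.68 ± 0.0473 (SE), and 0.66 without division by length.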

How the data were processed

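Per the labels and the study's methods, the authors trimmed reads with Cutadapt, aligned them with HISAT2 under default settings to GRCh38 and deposited raw HTSeq counts per longest transcript, without normalization. The labels and methods state neither tool versions nor the annotation release nor whether strand was used. The methods leave out 500 bp at both ends for PRO-seq. The label gives 500 bp without naming the ends, and 1000 bp were taken off each span. Records that name no transcript (66.5% to 68.6% in RNA-seq, 86.5% and 88.6% in PRO-seq) stayed out of totals and tests.

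Of 42371 transcripts, 37339 (88.1%) were matched by identifier to GENCODE 44 lifted to GRCh37, which gave lengths, UTRs and transcript sequences. Gene positions are RefSeq's on GRCh38. The unmatched transcripts held 2.80% to 3.69% of the counts of a library. TPM was computed per library and from summed counts. Ratios were tested with edgeR 4.0.16 (R 4.3.3, quasi-likelihood, TMM, length offsets, all 6 libraries, assay alone as factor), centred on the median mRNA, two-sided, with Benjamini-Hochberg adjustment over all TUs tested. P-values measure only the spread between libraries. On simulated data of RNA-seq against PRO-seq with 9584 TUs, 94.8% of the 192 given a log2 change of 1 were called, with 8 false calls. The simulation gave the other TUs equal density in both assays and used a dispersion of 0.01, so it gives no error rate for these data. Alternatives were DESeq2 1.42.0, other scalings, filters and lengths, a replicate block, the close RNA-seq pairs summed and each library left out. Replicate numbers 1 and 2 occur in both assays but did not pair the libraries (r = -0.00673 between the assays' differences over 9962 TUs).

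The genes and lists were chosen with earlier results of these data known. Named are the 8 genes, for each the 2 nearest mRNAs, and from each list the tested genes with the highest and lowest log2 ratio and the highest PRO-seq TPM. Other list genes were named after their values were seen, and 2 list genes, which the counts include, are not reported here. Figures were drawn with matplotlib 3.10.9 in Python 3.11.15.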

Additional observations from a re-analysis of the deposited data

Results flagged for a closer look

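The RNA-seq level of DNMT3A held a value apart from the others. Replicate 4 had 1.72 TPM, against 1.41 to 1.46 TPM in replicates 1 to 3, and its gap to the nearest was 0.835 of the whole range, above Dixon's 95% critical value for 4 samples. The values rest on 35 to 57 counts, and chance alone exceeds the critical value in about 1 of 20 groups, of which 8 were examined. Without RNA-seq replicate 4 the DNMT3A log2 difference was -0.86 (edgeR adjusted p = 1.1e-07).

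The processed pseudogene TDGP1, outside the comparisons above, had RNA-seq counts of 30, 38, 22 and 20, or 110 summed (6.58 TPM), and 0 PRO-seq counts over the 229 bp left after 1000 bp were taken off its span. Reads of TDG and its copy can be hard to tell apart, and how many of these counts come from TDG was not tested. The 110 counts on TDGP1 compare with 4285 RNA-seq counts on TDG itself. Records without a unique alignment were 24.5% to 28% in RNA-seq and 2.79% and 2.73% in PRO-seq, and were counted on no transcript. How many of those come from TDG was not tested either.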

How the results depend on the processing

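With at least 1 summed count and no TPM thresholds, the median mRNA was lower, and DNMT1 (0.31) and DNMT3B (0.41) lay above it, so that 4 genes of the group were called above. The calls over all TUs were then 6579 above and 8009 below. With at least 10 summed counts DNMT3B was at -0.11 (edgeR adjusted p = 0.066). When a difference beyond 2-fold was tested, 1 gene of the group was called above and 2 below, 13 pathway genes above, and 2141 TUs above and 2998 below. DNMT1 (-0.32, adjusted p = 1), UHRF1 (1.08, 0.056), DNMT3A (-0.75, 1), DNMT3B (-0.22, 1) and TET2 (-0.97, 0.63) did not pass that edgeR test. DNMT3A was at -1.22 from the mean of log2 TPM, which needs counts in every library. Without division by length, 17 pathway genes were called below, and D2HGDH (-0.40), GADD45B (2.02), MAT2A (0.66), MBD1 (0.22) and ZBTB38 (-2.55) changed side. MBD1 also did so at 1 summed count (0.067, adjusted p = 0.49). The cause of these shifts was not tested beyond the move of the median.

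Leaving out each library in turn gave -0.34 to -0.30 for DNMT1, 1.05 to 1.12 for UHRF1, -0.86 to -0.69 for DNMT3A, -0.28 to -0.17 for DNMT3B, -1.35 to -1.29 for TET1, -1.06 to -0.89 for TET2, -1.38 to -1.33 for TET3 and 1.10 to 1.13 for TDG. The calls were 3870 to 4007 TUs above and 4897 to 5055 below, and 27 to 28 pathway genes above and 9 to 12 below. With the replicate block the counts were 3921 above and 4970 below, DNMT1 was at -0.33 and DNMT3B at -0.23, and no gene of the group changed its call. DESeq2 gave 3895 and 4918. With 500 bp instead of 1000 bp taken off, the PRO-seq level of DNMT1 was 189.1 TPM and those of the other 7 genes also rose by more than their SD. Stricter TPM thresholds left out TET2 as well as DNMT3A. Depth limits DNMT3A most, with 194 RNA-seq and 360 PRO-seq counts.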

Other observations

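The pseudogenes of 2 other genes of the group had almost no counts. DNMT3AP1 had 1 RNA-seq and 1 PRO-seq count, and TET1P1 had 1 RNA-seq count and 0 PRO-seq counts.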
